A study of Homo sapiens with 12 samples.

Results

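Matrix metalloproteinases (MMPs) and their tissue inhibitors (TIMPs) were examined as 10 genes: MMP1, MMP2, MMP3, MMP7, MMP9, MMP10, MMP14, TIMP1, TIMP2 and TIMP3. They were taken by name from the 29744 gene rows of an RNA-seq count table, and each had 1 row. The 12 libraries came from cultured human mammary epithelial lines, 3 biological replicates for each of 4 lines. A10 (MCF10A) is immortalized but not tumorigenic, and NeoT (MCFNeoT) is its derivative carrying a mutant HRAS, described in the series as benign hyperplasia. NeoT cells passed through xenografts gave T1 (MCFT1), listed as atypical hyperplasia, and CA1 (MCFCA1), listed as invasive cancer. The lines thus share the MCF10A background. Each stage is represented by 1 line, so stage and line cannot be told apart. The series calls all 4 lines triple-negative and names no treatment. In this bulk RNA, fewer cells expressing a gene and less RNA per cell cannot be told apart.

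MMPs are zinc endopeptidases that cleave the proteins of the extracellular matrix. They are made as inactive precursors, opened by other proteases such as plasmin or by other MMPs, and held in check by TIMPs, which block the active site. TIMP2 has a second role: bound to MMP14 on the cell surface it forms the receptor through which pro-MMP2 is activated. In breast, these enzymes take part in remodelling of the gland and in the breaching of basement membrane by carcinoma, and stromal cells are a major source of several of them.

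Transcript control of these genes is often described through AP-1 elements and a TATA box in the inducible MMPs and through GC boxes in housekeeping-type promoters. RefSeq promoter sequences (GRCh38.p14) were at hand for 5 of the 10 genes: MMP7, MMP10, MMP14, TIMP1 and TIMP3. The 250 bases before the start site are given for the 4 that bear the contrast between the low and inducible enzymes and the abundant inhibitors. Capitals mark matches, on either strand, to any of 3 motifs. The AP-1 element was searched as TGANTCA. The core of the TATA box was searched in its usual form, TATAAA. The GC box, to which SP1 family factors bind, was searched as GGGCGG.
MMP7 (chr11:102530748-102530997, - strand): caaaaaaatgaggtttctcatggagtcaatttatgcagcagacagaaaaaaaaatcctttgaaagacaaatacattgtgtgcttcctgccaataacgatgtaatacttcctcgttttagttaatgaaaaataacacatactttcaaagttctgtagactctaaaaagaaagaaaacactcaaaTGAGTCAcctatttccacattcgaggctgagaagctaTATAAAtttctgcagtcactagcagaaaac
MMP10 (chr11:102780629-102780878, - strand): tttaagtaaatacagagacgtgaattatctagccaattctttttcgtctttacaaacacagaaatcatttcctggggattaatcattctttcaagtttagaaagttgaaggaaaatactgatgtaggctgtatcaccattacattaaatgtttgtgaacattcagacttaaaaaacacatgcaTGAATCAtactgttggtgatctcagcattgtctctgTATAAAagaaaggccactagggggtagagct
TIMP1 (chrX:47582186-47582435, + strand): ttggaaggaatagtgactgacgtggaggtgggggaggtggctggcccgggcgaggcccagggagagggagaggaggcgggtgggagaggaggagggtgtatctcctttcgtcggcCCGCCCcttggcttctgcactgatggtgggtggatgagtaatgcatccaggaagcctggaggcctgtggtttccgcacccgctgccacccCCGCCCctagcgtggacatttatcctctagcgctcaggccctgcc
TIMP3 (chr22:32801455-32801704, + strand): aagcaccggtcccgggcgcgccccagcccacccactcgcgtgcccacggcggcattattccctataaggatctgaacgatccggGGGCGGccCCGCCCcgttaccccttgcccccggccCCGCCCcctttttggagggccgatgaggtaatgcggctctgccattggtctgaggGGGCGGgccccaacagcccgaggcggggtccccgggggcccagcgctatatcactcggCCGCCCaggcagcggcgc
MMP7 held TGAGTCA beginning 67 bases before the start and TATAAA at 30 bases. MMP10 held TGAATCA at the same distance of 67 bases and TATAAA at 31 bases. None of the 3 windows of MMP14, TIMP1 and TIMP3 held an exact match to the AP-1 or TATA form. They held 1, 2 and 5 GC boxes, and those of MMP7 and MMP10 held 0. The TIMP1 window does read tgagtaa, 1 letter away from the AP-1 form searched. Such near matches were not searched, so these windows are not shown to lack AP-1 elements. AP-1 was found in 5.04%, the TATA box in 9.23% and the GC box in 56.0% of 15843 protein-coding promoters of the same length. PEA3 (AGGAAG, bound by ETS factors) was present in 28.7% of them, at 2 places in MMP7 and 1 in TIMP1. The GC content of the window was 33.6% in MMP7 and 34.4% in MMP10, against 56.8% in MMP14, 64.8% in TIMP1, 72.4% in TIMP3 and a median of 62.4% over all promoters. These matches describe letters and do not show binding.

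Library totals ran from 18032404 to 35730417 estimated counts, and between 12663 and 13906 genes had at least 10 counts. Levels are in CPM, the count as a share of the TMM-scaled library size. Single levels are means of the 3 libraries of a line, and a value after ± is their SD. Where a line had no count, the depth allows a level of up to 3 counts summed over its libraries, which is 0.0326 CPM for A10, 0.0474 for NeoT, 0.0356 for T1 and 0.0463 for CA1. Folds against such lines are lower bounds, and folds against lines with 1 to 3 counts are ratios with exact 95% intervals. Both use counts pooled over the 3 libraries of a line and its summed scaled library size, so they differ somewhat from ratios of the mean CPM. These limits cover counting error only. T1 replicate 1 had 7.763% of its counts on cytoplasmic rRNA against 0.954% to 2.18% elsewhere, and NeoT replicate 3 agreed least with its replicates (r = 0.9776 and 0.9784). Calls that were lost or gained without T1 replicate 1, or without both libraries, are therefore named. Without NeoT replicate 3 alone, all 57 differences between lines that have a fold kept their direction and side of the threshold. The NeoT libraries also went against an epithelial label. CDH1 (E-cadherin) stood at 0.691 CPM there against 313 in A10, 645 in T1 and 362 in CA1, and TP63, which marks basal cells, had 0 counts against 107, 41.8 and 27.1 CPM. Of the 10 epithelial markers, 7 were lower and 2 higher in NeoT than in A10, with a median log2 change of -4.46. The basal keratin KRT5 was 83.2-fold lower (40.2 against 3346 CPM, adjusted p = 3.84e-20), KRT17 212.8-fold lower and KRT14 170.7-fold lower (adjusted p = 1.93e-19 and 4.97e-19). Luminal keratins were present in NeoT, with KRT8 at 473 and KRT18 at 329 CPM. The 10 markers summed to 10020 to 10320 CPM in NeoT, of which ITGB4 (integrin beta 4) alone was 9352 CPM, and to 6585 to 7260 CPM in A10, where ITGB4 was 1060 CPM. The sum was 9698 to 10260 CPM in T1 and 16710 to 17560 CPM in CA1. Without the NeoT libraries, the differences among A10, T1 and CA1 that could be fitted, 26 in all, each kept their direction and side of the threshold. The pan-leukocyte gene PTPRC and the T-cell gene CD3E had 0 counts in all 4 lines. Others of the 7 leukocyte markers were present: CD68, a lysosomal protein high in macrophages, stood at 159 CPM in NeoT and 83.3 in CA1 against 8.27 in A10, and CD14 at 19.4 to 92.3 CPM over the lines. The list summed to 75.6 to 79.5 CPM in A10, 203.8 to 219.6 in NeoT, 106.1 to 114.4 in T1 and 104 to 108.1 in CA1. PGR had 0 counts in all 4 lines and ERBB2 was between 58.5 and 202 CPM. ESR1 was at 0.700 CPM in A10, 0.890 in T1 and 1.20 in CA1, with 0 counts in NeoT.

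Each gene of the family was tested between lines with edgeR's quasi-likelihood test, with p-values adjusted over the 14417 genes that passed the filter on low counts, which all 10 did. A gene is called higher or lower at an adjusted p under 0.05. Every one of the 10 differed among the 4 lines, from TIMP1 (adjusted p = 5.04e-20) to MMP10 (adjusted p = 0.00103), where 89.8% of all tested genes did. Low genes passed the filter through the line where they are high, so a difference among lines was partly set by the filter: MMP9 had 148 of its counts in A10 and 2 elsewhere, and MMP3 did not pass without NeoT, which left 9 genes of the family. The same holds for MMP10, which had 0 counts in A10 and did not pass in a fit to A10 and CA1 alone. No common course from A10 to CA1 was seen: the highest line was A10 for MMP9 and MMP14, NeoT for MMP2, MMP3, TIMP1 and TIMP2, T1 for MMP7, and CA1 for MMP1, MMP10 and TIMP3, by mean level.

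**Figure D1:**
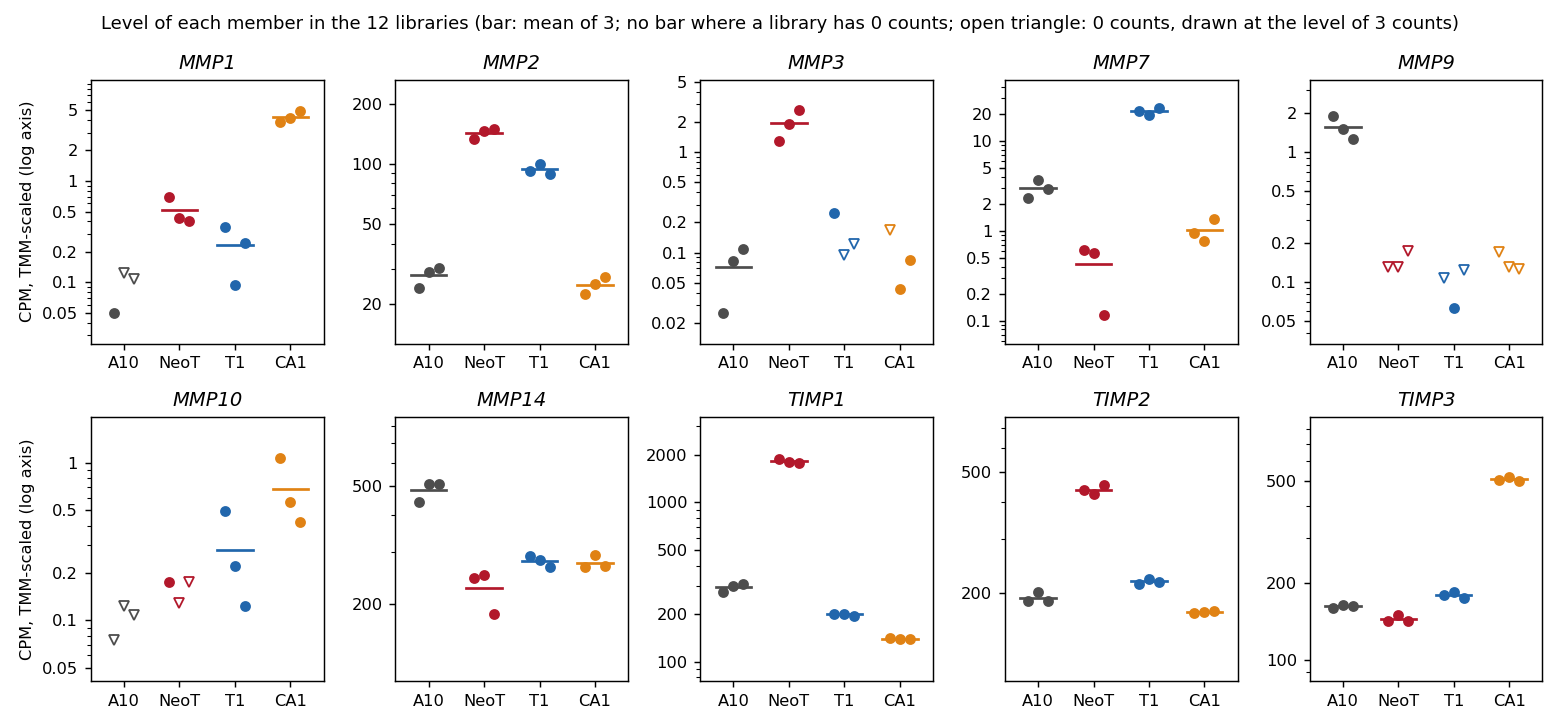
CPM (log axis) of each gene in the 3 libraries of each line, with 0 counts as open triangles at the level of 3 counts. The mean is a bar, left out where a library of the line had 0 counts. TIMP1 in NeoT (1764 to 1885 CPM), MMP7 in T1 (19.7 to 23.1 CPM) and TIMP3 in CA1 (502 to 521 CPM) lie above every library of the other lines.

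MMP1 (chromosome 11, 102789919 to 102798160), the interstitial collagenase that cleaves fibrillar collagen, was highest in CA1. Its libraries gave 3.77, 4.19 and 4.94 CPM in CA1, from 67, 97 and 118 counts. NeoT gave 0.698, 0.431 and 0.406 CPM and T1 gave 0.356, 0.0949 and 0.245 CPM. In A10 2 counts were found in replicate 1 and none in the other two libraries. All CA1 libraries lay above all others, and NeoT lay above T1 with no overlap. CA1 was 200.1-fold above A10 (95% counting interval 54.87 to 1660, adjusted p = 2.6e-08). It was 18.5-fold above T1 (log2 fold change 4.21, SE 0.53, adjusted p = 1.54e-06) and 8.27-fold above NeoT (adjusted p = 2.24e-05). NeoT and T1 were also called above A10, with ratios of 23.95 (interval 6.125 to 206, adjusted p = 9.81e-05) and 10.38 (interval 2.504 to 91.88, adjusted p = 0.00514). The step from NeoT to T1 was not called (log2 fold change -1.16, SE 0.57, adjusted p = 0.0801), but it was called without T1 replicate 1 (adjusted p = 0.0399). Without A10 replicate 1 no count remained in A10, and the 3 differences from it kept adjusted p = 5.82e-07 for CA1, 0.00019 for NeoT and 0.00351 for T1.

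MMP2 (chromosome 16, 55478830 to 55506691), gelatinase A, which degrades denatured collagen and basement membrane collagen IV, was high in NeoT and T1 and low at both ends of the series. NeoT libraries gave 133, 147 and 150 CPM, and T1 libraries gave 92.7, 99.8 and 89.4 CPM. A10 libraries gave 24.0, 28.9 and 30.2 CPM, and CA1 libraries gave 22.2, 25.2 and 27.1 CPM. NeoT lay above T1, and both lay above A10 and CA1, which overlapped. The difference from A10 was 5.19-fold in NeoT (log2 fold change 2.38, SE 0.10, adjusted p = 1.01e-13) and 3.40-fold in T1 (adjusted p = 1.61e-11). T1 was 1.53-fold below NeoT (adjusted p = 7.85e-06), and CA1 was 3.78-fold below T1 (adjusted p = 5.85e-12). CA1 was not called different from A10 (log2 fold change -0.15, SE 0.10, adjusted p = 0.175), although CA1 was called lower without A10 replicate 1 (log2 fold change -0.25, adjusted p = 0.0292) and with library totals in place of TMM (-0.36, adjusted p = 0.00323).

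MMP9 (chromosome 20, 46008908 to 46016561), gelatinase B, an inducible enzyme that is abundant in neutrophils and macrophages, was found in A10. A10 libraries held 76, 37 and 35 counts (1.91, 1.51 and 1.26 CPM). NeoT and CA1 held 0 counts in every library, and T1 held 2, both in replicate 2. A10 was thus separate from all other libraries. MMP9 was at least 34.0-fold lower in NeoT (adjusted p = 2.88e-05) and at least 34.8-fold lower in CA1 (adjusted p = 2.77e-05) than in A10. In T1 it was 67.75-fold lower (95% counting interval 18.43 to 564.6, adjusted p = 7.43e-05), and without T1 replicate 2 the adjusted p was 0.000326 with no count left. With at most 2 counts per line, no difference among NeoT, T1 and CA1 could be measured at this depth.

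The stromelysins MMP3 and MMP10, which cut proteoglycans, laminin and other MMP precursors, were low everywhere and peaked in different lines. MMP3 (chromosome 11, 102835801 to 102843609) gave 1.31, 1.90 and 2.61 CPM in NeoT, from 30, 44 and 45 counts. The other 3 lines held 3 to 7 counts in all, and their libraries overlapped at 0 to 0.249 CPM. NeoT was 26.8-fold above A10 (log2 fold change 4.75, SE 0.90, adjusted p = 0.00013). T1 was 21.9-fold below NeoT (adjusted p = 0.000216), and CA1 was 40.57-fold below it (95% counting interval 13.55 to 199.5, adjusted p = 0.000135). Neither T1 (adjusted p = 0.852) nor CA1 (adjusted p = 0.746) was called different from A10. The 7 counts of T1 were all in replicate 1; without it T1 held none and stayed below NeoT (adjusted p = 3.89e-05), and its fitted difference from A10 turned negative without being called (adjusted p = 0.0881). The log2 difference between T1 and NeoT was -3.84 without T1 replicate 2 (adjusted p = 0.00198), and that between CA1 and NeoT was -6.06 without CA1 replicate 3 (adjusted p = 0.00111).

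MMP10 (chromosome 11, 102770502 to 102780628) gave 19, 13 and 10 counts in CA1 (1.07, 0.561 and 0.419 CPM) and 14, 7 and 3 counts in T1 (0.498, 0.222 and 0.123 CPM). NeoT held 4 counts, all in replicate 1, and A10 held 0. T1 and CA1 overlapped, T1 overlapped NeoT, and all libraries of T1 and CA1 lay above those of A10. MMP10 was at least 19.9-fold above A10 in CA1 (adjusted p = 0.000388) and at least 8.74-fold above it in T1 (adjusted p = 0.00498, or 0.0241 without T1 replicate 1). These calls were partly set by the filter, which MMP10 did not pass in a fit to CA1 and A10 alone. CA1 was 10.1-fold above NeoT (log2 fold change 3.34, SE 1.04, adjusted p = 0.00958), and without NeoT replicate 1 the adjusted p was 0.00306 with NeoT at 0. NeoT against A10 (adjusted p = 0.091), T1 against NeoT (adjusted p = 0.0991) and CA1 against T1 (adjusted p = 0.2) were not called, but T1 was called above NeoT without NeoT replicate 1 (adjusted p = 0.0172). The transcripts of MMP3 and MMP10 share 125 stretches of 31 bases, 6.19% of those of MMP3 and 7.12% of those of MMP10, so a few reads could be split between them. No other pair of the family shares any.

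MMP7 (chromosome 11, 102520508 to 102530747), matrilysin, the small secreted enzyme typical of glandular epithelium, was highest in T1. Its libraries gave 21.3, 19.7 and 23.1 CPM in T1, from 600, 622 and 564 counts. A10 gave 2.34, 3.68 and 2.89 CPM, CA1 gave 0.957, 0.777 and 1.34 CPM, and NeoT gave 0.610, 0.561 and 0.116 CPM. The 4 lines did not overlap and stood in the order T1, A10, CA1, NeoT. T1 was 7.26-fold above A10 (log2 fold change 2.86, SE 0.24, adjusted p = 7.58e-09), 46.7-fold above NeoT (adjusted p = 1.08e-11) and 20.6-fold above CA1 (adjusted p = 1.36e-10). NeoT was 6.43-fold below A10 (adjusted p = 8.38e-07) and CA1 was 2.84-fold below it (adjusted p = 0.000134). CA1 was 2.26-fold above NeoT (adjusted p = 0.0123), a call lost without CA1 replicate 3 (log2 fold change 0.92, adjusted p = 0.0785) and in a fit to those lines alone (adjusted p = 0.0818). It was also lost without NeoT replicate 3 and T1 replicate 1 together (log2 fold change 0.79, adjusted p = 0.0562) and with limma-voom (adjusted p = 0.0504).

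MMP14 (chromosome 14, 22836585 to 22847758), the membrane-anchored collagenase MT1-MMP, was well expressed in every library and highest in A10. A10 libraries gave 443, 509 and 510 CPM, and NeoT libraries gave 244, 250 and 185 CPM. T1 libraries gave 291, 282 and 268 CPM and CA1 libraries gave 267, 294 and 268 CPM. A10 lay apart from the rest, NeoT lay lowest, and T1 and CA1 overlapped. MMP14 was lower than in A10 by 2.15-fold in NeoT (log2 fold change -1.11, SE 0.09, adjusted p = 7.86e-09), 1.74-fold in T1 (adjusted p = 1.08e-06) and 1.76-fold in CA1 (adjusted p = 4.05e-07). T1 (1.24-fold, adjusted p = 0.0078) and CA1 (1.22-fold, adjusted p = 0.0122) were above NeoT. The second call was lost without CA1 replicate 2 (adjusted p = 0.0574), with upper-quartile factors (0.0522) and in a fit to those lines alone (0.0529), and both were lost without NeoT replicate 3 and T1 replicate 1 together (adjusted p = 0.0759 for T1 and 0.0505 for CA1). T1 and CA1 were not called different (log2 fold change -0.02, SE 0.09, adjusted p = 0.872).

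TIMP1 (chromosome X, 47582436 to 47586789), a secreted inhibitor of most soluble MMPs, was highest in NeoT. NeoT libraries gave 1885, 1784 and 1764 CPM. A10 gave 276, 300 and 308 CPM, T1 gave 201, 201 and 193 CPM, and CA1 gave 141, 139 and 138 CPM. The lines did not overlap at any step of this order. NeoT was 6.16-fold above A10 (log2 fold change 2.62, SE 0.06, adjusted p = 2.68e-17), 9.14-fold above T1 (adjusted p = 1.69e-18) and 13.0-fold above CA1 (adjusted p = 2.71e-19). T1 and CA1 were 1.49-fold (adjusted p = 1.13e-07) and 2.11-fold (adjusted p = 7.61e-12) below A10, and CA1 was 1.42-fold below T1 (adjusted p = 4.81e-07).

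TIMP2 (chromosome 17, 78852977 to 78925387), the inhibitor that also takes part in MMP2 activation, was also highest in NeoT. NeoT gave 435, 424 and 453 CPM, T1 gave 214, 222 and 217 CPM, A10 gave 188, 200 and 187 CPM, and CA1 gave 171, 172 and 174 CPM. The lines did not overlap, but the 3 other than NeoT lay close together. NeoT was 2.28-fold above A10 (log2 fold change 1.19, SE 0.06, adjusted p = 1.17e-12), 2.01-fold above T1 (adjusted p = 1.26e-11) and 2.54-fold above CA1 (adjusted p = 1.55e-13). T1 was 1.14-fold above A10 (adjusted p = 0.0101, lost with library totals in place of TMM at 0.397). CA1 was 1.26-fold below T1 (adjusted p = 4.45e-05) and 1.11-fold below A10 (adjusted p = 0.021). The last call was lost without A10 replicate 2 (adjusted p = 0.0816), CA1 replicate 1 (0.0562) or CA1 replicate 2 (0.0552).

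TIMP3 (chromosome 22, 32801705 to 32863041), the matrix-bound inhibitor that also acts on ADAM and ADAMTS proteases, was highest in CA1. CA1 libraries gave 507, 521 and 502 CPM. T1 gave 179, 184 and 174 CPM, A10 gave 159, 164 and 163 CPM, and NeoT gave 142, 149 and 141 CPM. No lines overlapped, and CA1 stood far from the other 3. CA1 was 3.15-fold above A10 (log2 fold change 1.66, SE 0.06, adjusted p = 1.03e-14), 2.85-fold above T1 (adjusted p = 9.08e-14) and 3.53-fold above NeoT (adjusted p = 1.43e-15). T1 was 1.24-fold above NeoT (adjusted p = 7.08e-05). NeoT was 1.12-fold below A10 (adjusted p = 0.0125, or 0.0882 in a fit to those lines alone). T1 was 1.11-fold above A10 (adjusted p = 0.0344), a call lost without any 1 of 6 libraries: A10 replicate 1 (0.0804), 2 (0.0539) or 3 (0.0757), T1 replicate 1 (0.0852) or 2 (0.13), or CA1 replicate 3 (0.0502). It was also lost with library totals in place of TMM (log2 fold change 0.03, adjusted p = 0.714), with upper-quartile factors (0.0614) and with no filter (0.0878).

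**Figure D2:**
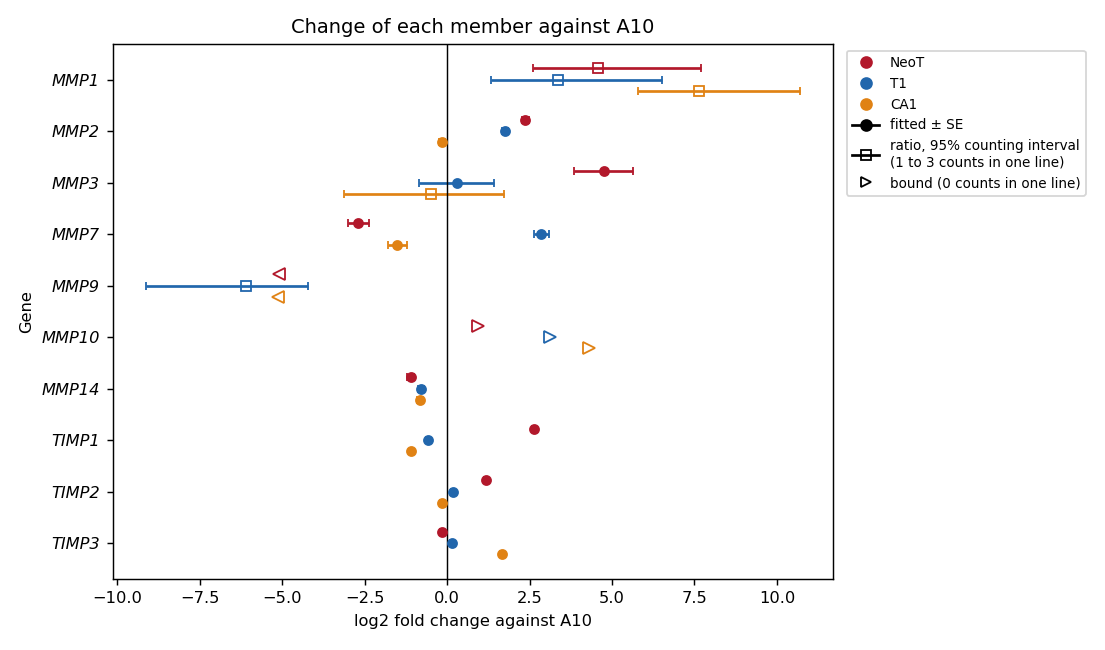
Log2 fold change of each gene in NeoT, T1 and CA1 against A10, as fitted values with SE, as count ratios with 95% counting intervals, or as bounds where a line had 0 counts. TIMP1 and TIMP2 lie to the right in NeoT, TIMP3 (1.66) in CA1 and MMP7 (2.86) in T1, while MMP9 and MMP14 lie to the left in all 3 lines.

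By comparison, NeoT differed from A10 in 9 of the 10 genes: MMP1, MMP2, MMP3, TIMP1 and TIMP2 were higher, and MMP7, MMP9, MMP14 and TIMP3 were lower, where 33.7% of all tested genes were called higher and 36.7% lower. T1 was above A10 in 6 (MMP1, MMP2, MMP7, MMP10, TIMP2, TIMP3; 26% of all genes) and below it in 3 (MMP9, MMP14, TIMP1; 25.9% of all genes). CA1 was above A10 in 3 (MMP1, MMP10, TIMP3; 34.4% of all genes) and below it in 5 (MMP7, MMP9, MMP14, TIMP1, TIMP2; 36.5% of all genes). These 3 comparisons share the A10 libraries. The median size of the log2 change of the family, in either direction, was 2.65, 1.28 and 1.29, against 0.70, 0.39 and 0.69 over all tested genes. These sizes use fitted folds also where a line had 0 counts. The family was chosen with earlier results of these data known, so the larger sizes may partly reflect that choice. The signed median was 1.78 in NeoT (1.07 with genes at 0 at their bound), 0.24 in T1 and -0.33 in CA1, against -0.04, -0.01 and -0.02 over all genes.

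Between the derived lines, T1 exceeded NeoT in MMP7, MMP14 and TIMP3 (3 genes, 35% of all genes higher) and fell below it in MMP2, MMP3, TIMP1 and TIMP2 (4 genes, 32.4% of all genes lower). CA1 exceeded T1 in MMP1 and TIMP3 (2 genes, 30.4% of all genes) and fell below it in MMP2, MMP7, TIMP1 and TIMP2 (4 genes, 31.9% of all genes). CA1 exceeded NeoT in MMP1, MMP7, MMP10, MMP14 and TIMP3 (5 genes, 33.8% of all genes) and fell below it in MMP2, MMP3, TIMP2 and TIMP1 (4 genes, 32.7% of all genes). In NeoT the higher MMP2, MMP3, TIMP1 and TIMP2 went with a changed set of lineage markers. The 9 fibroblast markers summed to 623 to 697 CPM in NeoT, against 169 to 173 in A10 and less in T1 (52.3 to 55.1) and CA1 (12.7 to 14.4). Most of the NeoT sum was DCN (decorin) at 632 CPM against 69.1 in A10. FAP, a fibroblast protease, was 6.72-fold lower in NeoT (14.3 against 95.3 CPM, adjusted p = 2.93e-13), and COL1A1 was 8.14 against 5.09 CPM (adjusted p = 0.0133). In NeoT COL1A2, COL3A1, LUM, PDGFRA and PDGFRB were at 0.0968 to 0.445 CPM and THY1 had 0 counts. All 5 tested of 6 adipocyte markers were higher in NeoT than in A10, among them PPARG (48.0 against 4.89 CPM), CIDEC (23.6 against 0.0273 CPM) and PLIN1 (10.5 against 0.0409 CPM), while ADIPOQ had 0 counts. Their sum was 81.8 to 94.8 CPM in NeoT, 4.78 to 5.20 in A10, 59.8 to 68.5 in T1 and 98.2 to 104.7 in CA1. Of the 4 leukocyte markers tested, 1 was higher and 3 lower in NeoT than in A10, with a median log2 change of -2.58. CD68 was 19.2-fold higher (adjusted p = 1.62e-17). CSF1R was 29.8-fold lower (adjusted p = 1.56e-09), CD14 was 1.20-fold lower (adjusted p = 0.00597), and ITGAM had 0 counts in NeoT (adjusted p = 3.95e-05). The part of these markers in the family's differences was not tested.

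Levels of different genes were set side by side per kilobase of the longest annotated protein-coding transcript. The isoforms expressed were not known, so the order of genes rests on this choice of length. In CPM, MMP14 was above TIMP1 in A10, T1 and CA1, and TIMP1 in CA1 (139) was below TIMP2 (172) and TIMP3 (510). Per kb, TIMP1 led the family in every line. It reached 269 CPM per kb in A10, and 1654, 181 and 127 in the other lines in the order NeoT, T1, CA1. MMP14 led the 7 MMPs of the family in every line, at 131 CPM per kb in A10 and 60.7, 75.1 and 74.0 in the same order. Proteases outside the family were not ranked per kb. Of the summed level of the 7 MMPs, MMP14 made up 92.4% ± 0.29 in A10 and 87.9% ± 1.26 in CA1, but 60.0% ± 5.05 in NeoT and 62.8% ± 1.03 in T1 (SD, n = 3). MMP2 took most of the remainder in NeoT (38.4% ± 4.94) and 21.0% ± 1.07 in T1, where MMP7 held another 15.9% ± 1.55. MMP1 was 2.60% ± 0.37 of the sum in CA1, its highest share. Among the 3 TIMPs, TIMP1 was 91.6% ± 0.38 in NeoT, 75.4% ± 0.97 in A10, 64.7% ± 0.47 in T1 and 44.6% ± 0.37 in CA1. TIMP3 was 38.8% ± 0.47 of the inhibitor sum in CA1 and 1.74% ± 0.09 in NeoT. By this measure per kb, CA1 held nearly even shares of TIMP1 and TIMP3, and NeoT almost TIMP1 alone. These shares describe transcripts, and no protein or activity was measured.

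**Figure D3:**
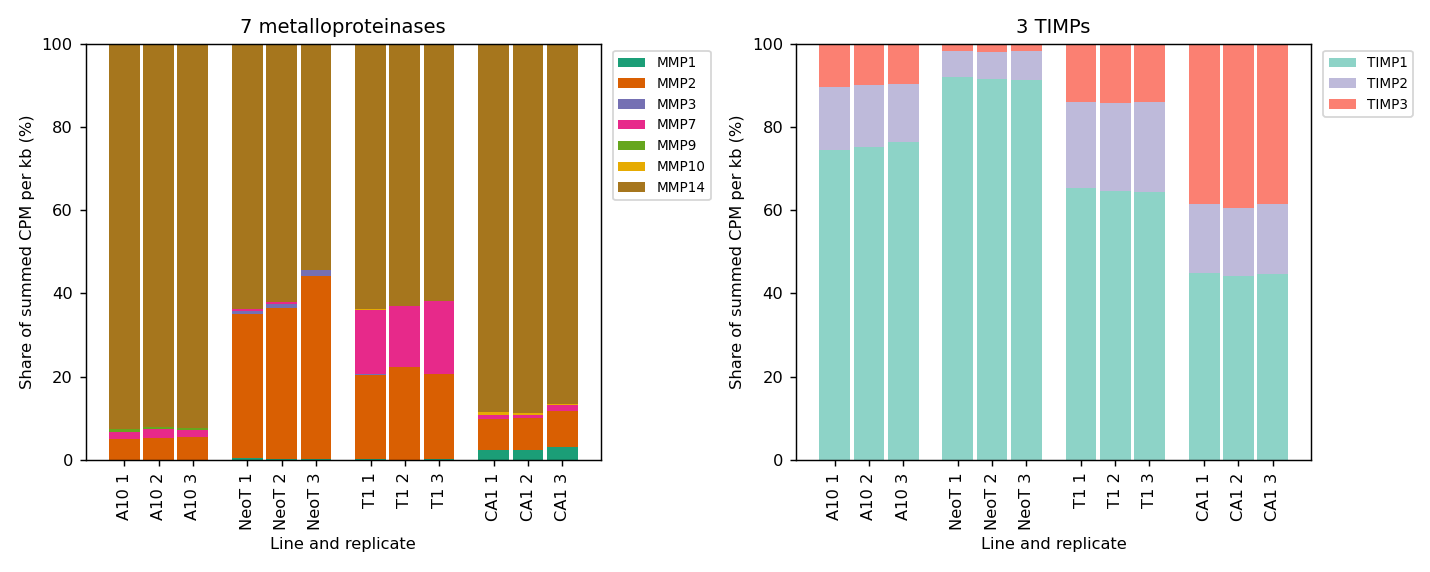
Share (%) of each gene in the summed CPM per kb of the 7 MMPs and of the 3 TIMPs, 1 bar per library. MMP14 fills 92.4% of the MMP sum in A10 and 60.0% in NeoT, and TIMP3 widens to 38.8% of the TIMP sum in CA1.

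Ratios within a library do not depend on scaling between libraries. The count ratio of MMP14 to TIMP2, the partners of the pro-MMP2 receptor, was 2.36, 2.54 and 2.73 in A10, 0.561, 0.590 and 0.408 in NeoT, 1.36, 1.27 and 1.23 in T1, and 1.56, 1.71 and 1.54 in CA1. The lines did not overlap, with A10 highest and NeoT lowest. The ratio of MMP2 to TIMP2 was 0.128, 0.144 and 0.162 in A10 and 0.130, 0.147 and 0.156 in CA1, which overlapped. It was 0.306, 0.346 and 0.331 in NeoT and 0.433, 0.451 and 0.411 in T1. T1 was thus the line with most MMP2 per TIMP2, although its MMP2 level was below that of NeoT. The ratio of MMP9 to TIMP1 was 0.00693, 0.00505 and 0.00411 in A10 and 0 in every library of NeoT and CA1. Being ratios of counts of unequal transcripts, these values compare lines and not molecules, and no test was made on them.

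**Figure D4:**
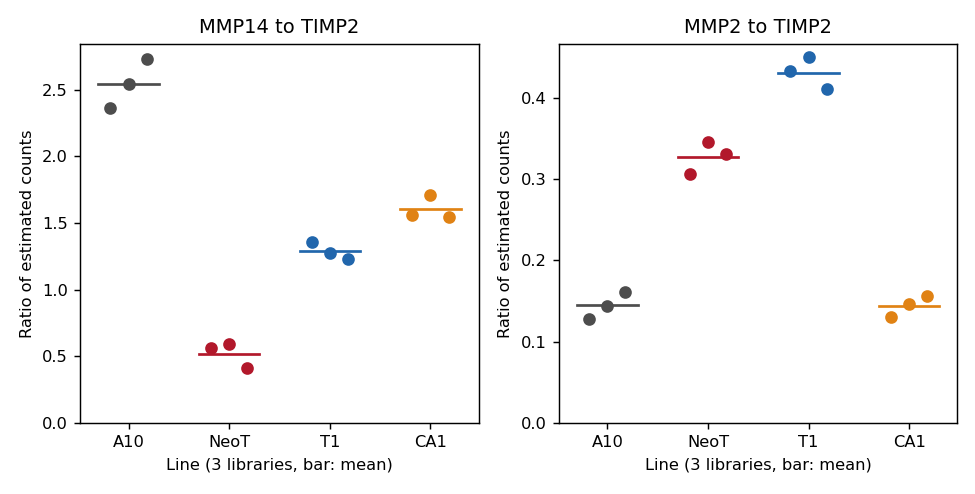
Ratio of estimated counts in each of 3 libraries per line, with the mean as a bar, for MMP14 to TIMP2 and MMP2 to TIMP2. MMP14 to TIMP2 averages 2.54 in A10 and 0.519 in NeoT, and MMP2 to TIMP2 averages 0.432 in T1 and 0.144 in CA1.

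MMP1, MMP3, MMP7 and MMP10 belong to a cluster of 9 MMP genes on chromosome 11 (102520508 to 102955732, GRCh38.p14, 435.2 kb), in the order MMP7, MMP20, MMP27, MMP8, MMP10, MMP1, MMP3, MMP12, MMP13. These 4 were the only ones of the 9 that passed the filter on low counts. The other 5 held 2, 0, 4, 2 and 28 counts over all 12 libraries, the 28 being those of MMP13, collagenase 3. The 4 did not share a highest line: MMP7, at one end, peaked in T1 and MMP3 in NeoT, while MMP1 and MMP10 had their highest mean in CA1. For MMP10, the CA1 libraries overlapped those of T1. MMP7 and MMP10, which shared the AP-1 and TATA letters at nearly the same distance, differed in pattern between T1 and CA1. MMP7 was 20.6-fold lower in CA1, while MMP10 was at 0.683 CPM in CA1 and 0.281 in T1, with overlapping libraries and no call (adjusted p = 0.2). That the changes of the 2 genes differ was not tested.

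**Figure D5:**
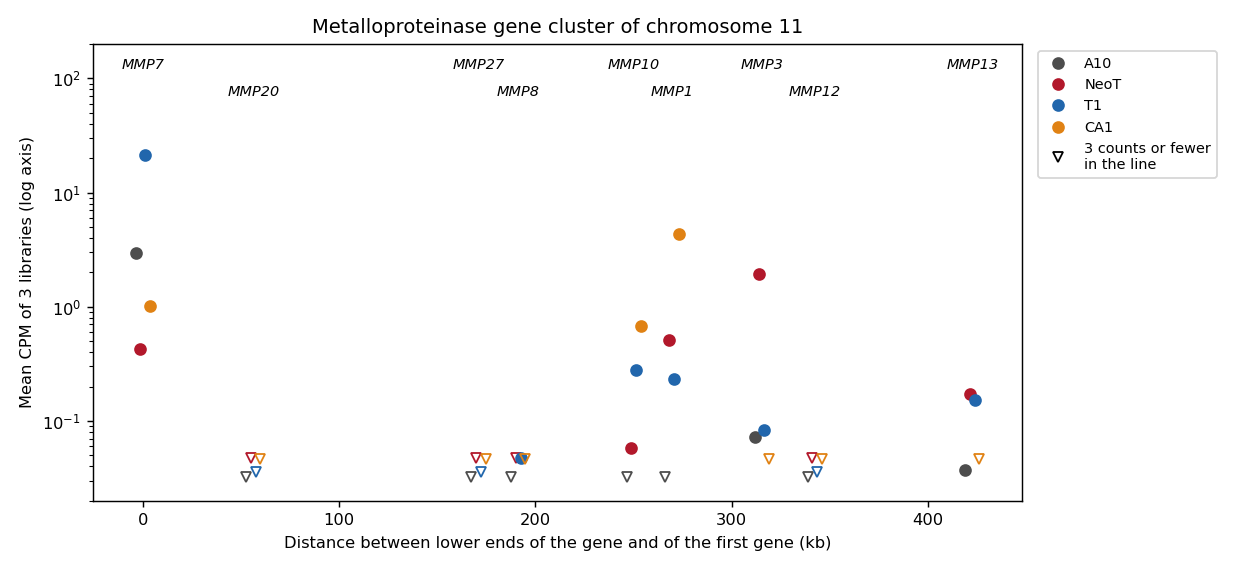
Mean CPM (log axis) in each line of the 9 MMP genes of the chromosome 11 cluster, by distance of their lower ends from that of MMP7; open triangles mark 3 counts or fewer in a line. MMP7 reaches 21.4 CPM in T1 and MMP1 4.30 CPM in CA1, and 5 genes of the cluster stay at 0.174 CPM or below.

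Of 16 other MMPs, 8 were tested and all 8 differed among the lines, where 89.8% of all tested genes did. Against A10, the shares of all tested genes called higher and lower were 33.7% and 36.7% in NeoT, 26% and 25.9% in T1, and 34.4% and 36.5% in CA1. Of the 8, 2 were higher and 2 lower than in A10 in NeoT, 1 and 3 in T1, and 1 and 5 in CA1, with median log2 changes of 0.48, -0.95 and -1.49. MMP28 (epilysin, an epithelial MMP) stood at 180 and 205 CPM in A10 and T1 but 28.1 and 55.6 CPM in NeoT and CA1. It was 6.39-fold lower in NeoT (adjusted p = 7.59e-15) and 3.24-fold lower in CA1 (adjusted p = 2.94e-12) than in A10. The membrane-type MMP15 was 2.49-fold lower in CA1 than in A10 (8.40 against 21.1 CPM, adjusted p = 1.45e-08). MMP17, anchored by a lipid, rose in all 3 derived lines, from 12.6 CPM to 21.5, 20.1 and 18.8 CPM (adjusted p = 0.000195, 0.00101 and 0.00264). Of 9 ADAM sheddases 7 were tested, with 2 higher and 4 lower in NeoT, 3 and 1 in T1, and 3 and 2 in CA1. ADAM12 rose 7.93-fold in NeoT, 5.74-fold in T1 and 2.89-fold in CA1 from 6.04 CPM in A10 (adjusted p = 6.78e-14, 1.88e-12 and 1.48e-09). ADAM19 was 12.5-fold below A10 in NeoT and 4.08-fold above it in CA1 (48.3, 3.82 and 197 CPM; adjusted p = 2.7e-15 and 3.91e-13). Of 19 ADAMTS proteases, which cut proteoglycans and procollagens and are targets of TIMP3, 11 were tested. They were higher in 6 and lower in 1 in NeoT, 2 and 2 in T1, and 3 and 5 in CA1, where ADAMTS9 fell 3.72-fold (adjusted p = 1.05e-08) and ADAMTS15 rose 5.75-fold (adjusted p = 1.44e-06).

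Other inhibitors and clearance receptors changed beside the TIMPs: of 10 listed 7 were tested, with 5 higher and 2 lower in NeoT, 4 and 2 in T1, and 2 and 4 in CA1. SERPINE2 (protease nexin-1, which blocks plasmin and urokinase) stood at 46.0 CPM in A10 and 1916 in NeoT, a 41.7-fold difference (adjusted p = 6.8e-20). LRP1, the receptor that clears MMP and TIMP complexes, fell from 194.5 CPM in A10 to 70.9 in T1 and 30.8 in CA1, against 308 in NeoT, and was 6.30-fold lower in CA1 than in A10 (adjusted p = 1.18e-14). Of 14 activators and inducers 12 were tested, with 3 higher and 8 lower in NeoT, 8 and 4 in T1, and 8 and 3 in CA1. PLAT (tissue plasminogen activator) fell 27.1-fold in NeoT and rose 6.15-fold in CA1 (adjusted p = 2.63e-18 and 5.03e-16), and ST14 (matriptase, an epithelial membrane protease) went from 312 CPM in A10 to 2.33 in NeoT (adjusted p = 1.99e-15). Of 17 matrix substrates 14 were tested, with 7 higher and 6 lower in NeoT, 3 and 7 in T1, and 8 and 4 in CA1. FN1 (fibronectin) was 15970 CPM in NeoT, 1157 in A10, 65.1 in T1 and 34.0 in CA1. LAMA3, a laminin chain of the epithelial basement membrane, was 41.7 CPM in NeoT and 952 to 1471 CPM in the others. FN1 was 13.8-fold above A10 in NeoT and 34.1-fold below it in CA1 (adjusted p = 2.04e-16 and 2.04e-17), and LAMA3 was 22.8-fold lower in NeoT (adjusted p = 1.93e-19). All 13 AP-1 and ETS factors were tested, with 8 higher and 2 lower in NeoT, 2 and 4 in T1, and 8 and 5 in CA1. FOS was highest in T1 (96.6 CPM, 4.36-fold above A10, adjusted p = 1.89e-13), and FOSL1 was highest in CA1 (265 CPM, 3.19-fold above A10, adjusted p = 1.77e-10). FOSB (6.08 CPM) and ETV1 (25.7 CPM) were highest in NeoT, 5.20-fold and 3.70-fold above A10 (adjusted p = 3.11e-07 and 8.36e-09). The background rates of calls over all genes given above hold for these lists too.

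Among 10350 genes of at least 10 CPM in their highest line, those with the pattern most like TIMP1 over the 12 libraries (Pearson's r of log2 CPM) were CRTAP (r = 0.9991), ITGA5 (0.9983) and TWIST1 (0.9961). ITGA5, the fibronectin receptor chain, stood at 248, 1902, 155 and 89.5 CPM and TWIST1, a transcription factor of mesenchymal cells, at 29.9, 213, 19.8 and 12.4 CPM in A10, NeoT, T1 and CA1. TIMP3 was most like FDFT1 (0.9949), H1F0 (0.9929) and ANTXR2 (0.9922), and TIMP2 most like RPN2 (0.9933), PCMTD2 (0.9917) and DAW1 (0.9911). MMP14 was most like PUF60 (0.9848), MMP7 most like ISG15 (0.9758) and MMP9 most like C2orf43 (0.9911), which was at 17.4 CPM in A10 and 0 elsewhere. MMP3 was most like BSCL2 (0.9682) and MMP1 most like LOC101929479 (0.9845). With 4 lines behind 12 libraries these values are descriptions, and another prior count or Spearman's rho named different genes in most cases.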

How the data were processed

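Per the labels' protocols, RNA treated with DNase I was made into libraries with an NEBNext Ultra kit for Illumina sequencing. The authors deposited 1 table of expected counts by gene, with a column for each of 12 libraries and no scaling between them; its name gives Salmon as the tool. GRCh38 and limma are named, with no role, per the submitters' processing notes; the annotation, the strand setting and other versions are not given in the sources used here. Of the values 10.1% were not whole, and they were rounded, by at most 0.5. Of 29744 rows 10311 had no count.

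Samples were grouped by line from their titles. The filter of edgeR 4.0.16 (filterByExpr; R 4.3.3) left 14417 genes, and all 12 libraries entered a robust quasi-likelihood fit with TMM factors and 1 mean for each line. The lines were compared in 6 pairs and together, two-sided, with Benjamini-Hochberg adjustment and a threshold of 0.05. The p-values measure the spread between libraries that the labels call biological replicates, and no 2 libraries were alike within sampling noise. Alternatives used DESeq2 1.42.0, limma 3.58.1 and the settings named in the closing section. Lengths came from GENCODE 29, positions and promoters from RefSeq GRCh38.p14, and figures from matplotlib 3.10.9.

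Reads of a gene and of an overlapping antisense gene cannot be told apart where strand was not used. SLC12A5-AS1 shares 430 exonic bases with MMP9 and AC022966.1 shares 367 with TIMP2, both on the other strand, and CEP295NL shares 198 with TIMP2 and AC007336.3 shares 174 with MMP2 on the same strand. None of these 4 names has a row, and rows under earlier names were not searched. WTAPP1, a pseudogene on the other strand that shares 150 with MMP1 and 32 with MMP3, had 0 counts.

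The family's members, the gene lists, the comparisons and most alternatives were chosen with earlier results of these data known. Named beside the members were, per list, up to 4 genes that differed among the lines with the widest range of mean log2 CPM and at least 5 CPM in the highest line, and the 3 genes of most like pattern (prior count 2). Only those that a statement needed are printed, and KRT5, KRT8, KRT18, ITGB4, PPARG and the markers at 0 or at low levels were added after their values were seen. Library totals in place of TMM were tried after seeing the data.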

Additional observations from a re-analysis of the deposited data

How the results depend on the processing

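The 57 differences of the 10 genes between lines that have a fold were recomputed under the alternatives, giving 1377 values. Of these, 1318 kept their direction and side of the threshold, 41 lost the call, 7 gained one and 11 changed sign. The 10 genes differed among the lines in all 12 fits that left out 1 library. Those fits gave 4 to 5 genes higher in CA1 than NeoT, 5 to 6 higher in T1 than A10, 3 to 4 higher in T1 than NeoT, 4 to 6 lower in CA1 than A10 and 4 to 5 lower in T1 than NeoT, and the other counts did not change.

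Asking for more than a 2-fold change (glmTreat) lowered the genes called higher in CA1 than NeoT from 5 to 3, and higher in T1 than NeoT from 3 to 1. It left 1 lower in CA1 than A10, 2 lower in CA1 than T1, 2 lower in NeoT than A10, 1 lower in T1 than A10 and 2 lower in T1 than NeoT. Among the genes higher in T1 than A10, TIMP2 (log2 fold change 0.184) and TIMP3 (0.146) lost their calls. For CA1 above A10, a fit to those lines alone called 2 genes in place of 3, as MMP10 did not pass the filter. For CA1 above NeoT, 2 genes were called in a fit to those lines alone, where MMP7 and MMP14 lost their calls and MMP10 did not pass the filter, and 3 without T1 replicate 1 and NeoT replicate 3. The sign changes concerned differences that were not called. MMP14 in CA1 against T1 was 0.002 (log2) without those 2 libraries and -0.066 to 0.004 with 1 library left out. MMP3 in CA1 against T1 was 0.428 with limma-voom, 3.38 without those 2 libraries and -1.604 to 3.338 with 1 left out. MMP3 in T1 against A10 was -0.759 with limma-voom, -3.901 without those 2 libraries and -3.864 to 0.894 with 1 left out, as all 7 counts of T1 lay in replicate 1.

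Without TMM the median log2 change of all genes moved from -0.042 to -0.27 in NeoT, -0.007 to -0.122 in T1 and -0.023 to -0.236 in CA1 against A10, and the share of calls that were higher from 47.9% to 35.4%, 50.2% to 38% and 48.5% to 37%. No gene of the family changed direction with any of the scalings. Replicate numbers did not pair the libraries: deviations of 18 same-numbered pairs correlated at -0.069 to 0.088, and 1 of 12 libraries correlated best with its own number. With the replicate number as a block, the counts of genes called were as reported, for example 5 higher and 4 lower in NeoT than A10. Depth limits MMP1, MMP3, MMP9 and MMP10, of which at least 1 line held 0 to 7 counts. MMP1 in CA1 against A10 moved from 7.361 to 9.695 (log2) without A10 replicate 1, which held both counts of A10.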
